A study of Mus musculus with 18 samples.

Results

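Oxidative phosphorylation runs on 5 protein complexes whose subunits come from both the nuclear and the mitochondrial genome. The genes described here were chosen by symbol among protein-coding genes of the GENCODE mouse M21 annotation: subunits of NADH dehydrogenase (Nduf genes with a subunit number), succinate dehydrogenase (Sdha to Sdhd), the cytochrome bc1 complex (Uqcr genes and Cyc1), cytochrome c oxidase (Cox4 to Cox8), ATP synthase (Atp5 genes), the carrier Cycs, and every gene of the mitochondrial genome. The rule took 100 of the 54281 gene rows, 87 nuclear and 13 mitochondrial. The nuclear rows hold 35 subunits of complex I (7 core and 28 accessory), 4 of complex II, 9 of complex III, 20 of complex IV, 18 of complex V and Cycs. Of the mitochondrial genes, 7 encode subunits of complex I, 1 of complex III, 3 of complex IV and 2 of complex V. Ndufa4 and its paralogue Ndufa4l2 were counted with complex IV, where the Ndufa4 protein sits. After the filter on low counts, 96 members were tested, 83 nuclear and all 13 mitochondrial. The untested rows were Cox7b2, Cox8b, Cox8c and a second identifier of Atp5o, which held 0 counts in every library.

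Complexes I, III and IV pass electrons from NADH to oxygen and pump protons out of the mitochondrial matrix, complex II feeds in electrons from succinate, and complex V uses the proton gradient to make ATP. The mitochondrial genome encodes only hydrophobic subunits and the RNAs to translate them, so each complex except II needs products of both genomes. Neurons depend on this pathway for ion pumping at synapses, and several complex IV subunits exist as tissue isoforms with separate genes, among them heart and muscle forms, a lung form and a testis form.

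The cortex libraries came from cerebral cortex of male C57BL/6J mice, either wild type (WT) or labelled Mcph1KO for a gene mutated in primary microcephaly, at the embryonic stage E17.5, the early postnatal stage P4 and the adult stages labelled A6w and A18w. The labels do not describe the allele. A further group was the wild-type mouse embryonic stem cell line R1 (mESC). Each of the 9 groups had 2 libraries, made from total RNA of a tissue homogenate in the cortex samples. The labels do not say whether the libraries of a group came from separate animals or cultures, so p-values measure the spread between libraries, which may be technical.

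Library totals ran from 23531045 to 32041849 counts. Mcph1 did not separate the labels in the direction of a loss: it lay between 8.32 and 12.3 CPM (counts scaled to a common library total, with TMM factors that correct for RNA composition) in the 8 WT cortex libraries and between 11.8 and 16.5 in the 8 labelled Mcph1KO, so genotypes are given as labelled. Summed cortical neuron markers ran from 2544 to 12030 CPM in cortex and were 327 and 191 in mESC, where pluripotency markers reached 7351 and 7059. Some cortex libraries stood apart by markers of neighbouring tissue. Summed choroid plexus markers ran from 9.1 to 962 CPM at E17.5 and from 13.9 to 773 at P4. At A18w they were at 7.11 and 708 CPM in WT replicates 1 and 2, and at 5.93 and 27.3 in Mcph1KO. Summed hippocampus markers ran from 195 to 488 CPM at A6w, and summed striatum markers from 538 to 2514 at A18w. Their part in the values below was not tested. In such whole-tissue RNA, fewer cells of a type and less RNA per cell cannot be told apart.

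Short stretches of sequence are shown first for what they say about the counting and about the nuclear members. The nuclear genome carries old copies of mitochondrial DNA, some of them annotated as genes, and reads from them look almost the same as mitochondrial reads. The gene with most such counts was Gm29216 on chromosome 1, which matched 483 bases of mt-Co1 with 1 difference, A1066T, counted from the first base of mt-Co1. The first 80 aligned bases shown here, from the GENCODE M21 transcripts on GRCm38, hold that base in capitals.
mt-Co1, chrM:6390-6469, plus strand: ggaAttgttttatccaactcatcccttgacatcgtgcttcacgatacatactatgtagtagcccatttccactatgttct
Gm29216, chr1:24616109-24616188, minus strand: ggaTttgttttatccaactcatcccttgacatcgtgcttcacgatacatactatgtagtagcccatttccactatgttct
A read that lies within the matched bases and misses this position fits both genes equally well.

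Many nuclear respiratory genes have promoters with sites for nuclear respiratory factor 1 or for ETS factors such as the GA-binding protein, both regulators of mitochondrial genes. RefSeq promoters on GRCm38.p6 were matched for 69 of the 86 nuclear symbols. A promoter here is the window from 250 bases before to 50 after the gene start, and letters were searched on both strands. The nuclear respiratory factor 1 letters (GCGCA, any base, then GCGC) stood in 24.6% of the 69 member genes and in 5.19% of all 27025 genes with a promoter. The ETS letters CCGGAAG stood in 23.2% of members and 9.93% of all genes, the YY1 letters AAGATGGC in 14.5% and 3.19%, and the cyclic AMP element TGACGTCA in 7.25% and 2.03%. The TATA letters TATAAA were in 10.1% of members and 15.7% of all genes. The 250 bases upstream of 3 members that rose between P4 and A6w are shown 5′ to 3′ as examples of these letters, with matches in capitals.
Cox6a1, chr5:115348959-115349208, minus strand: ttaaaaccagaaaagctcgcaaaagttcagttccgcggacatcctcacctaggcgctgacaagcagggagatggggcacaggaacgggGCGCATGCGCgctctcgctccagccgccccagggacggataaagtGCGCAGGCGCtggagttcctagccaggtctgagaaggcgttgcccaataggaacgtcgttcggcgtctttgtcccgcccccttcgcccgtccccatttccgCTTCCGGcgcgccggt
Sdha, chr13:74350241-74350490, minus strand: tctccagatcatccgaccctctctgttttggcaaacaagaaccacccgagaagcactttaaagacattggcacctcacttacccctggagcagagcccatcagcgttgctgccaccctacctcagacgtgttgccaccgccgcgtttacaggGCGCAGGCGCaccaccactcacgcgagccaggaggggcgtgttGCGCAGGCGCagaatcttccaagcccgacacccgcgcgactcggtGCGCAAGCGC
Cox8a, chr19:7217617-7217866, minus strand: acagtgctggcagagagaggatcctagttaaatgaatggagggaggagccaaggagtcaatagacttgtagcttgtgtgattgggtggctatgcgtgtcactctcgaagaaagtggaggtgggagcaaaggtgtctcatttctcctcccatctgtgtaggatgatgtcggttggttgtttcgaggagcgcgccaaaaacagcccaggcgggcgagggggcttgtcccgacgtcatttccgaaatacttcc
The stretches of Cox6a1 and Sdha hold nuclear respiratory factor 1 letters, and that of Cox6a1 also ETS letters. The printed stretch of Cox8a holds no match, but its full window, which runs 50 bases past the start, holds the ETS letters. A match is a string of letters, not a measured site.

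The share of all counts that came from the 13 mitochondrial genes was higher at P4 than at E17.5 and higher again in adult cortex, and that from the nuclear members differed less and later. In the E17.5 libraries the mitochondrial share was 1.79% and 2.83% in WT replicates 1 and 2, and 1.72% and 2.93% in those labelled Mcph1KO. At P4 it was 4.83% and 4.06% in WT and 3.68% and 4.09% in Mcph1KO. At A6w the same order gave 7.40%, 5.52%, 7.33% and 6.42%, and at A18w 9.08%, 6.43%, 8.02% and 6.22%. Every P4 library lay above every E17.5 library, every A6w library above every P4 library, and the adult stages overlapped. Within E17.5, both libraries numbered 1 lay below both numbered 2. Ribosomal RNA of the mitochondrial genome, which is not among the members, differed more steeply by stage. Its share of all counts ran from 0.0346% to 0.0687% at E17.5 and from 0.137% to 0.183% at P4. At A6w it ran from 0.529% to 0.645% and at A18w from 0.594% to 0.755%. The part of RNA selection in either share was not tested.

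The nuclear share overlapped between E17.5 and P4. It was 0.775%, 0.693%, 0.775% and 0.671% at E17.5 and 0.668%, 0.672%, 0.788% and 0.667% at P4, in the order WT 1, WT 2, Mcph1KO 1, Mcph1KO 2. It was 0.844%, 0.875%, 0.962% and 0.805% at A6w and 0.940%, 0.964%, 1.15% and 0.851% at A18w. Both adult stages lay above P4 in all 8 libraries. In mESC the nuclear share was higher than in any cortex library, 1.36% and 1.32%, while the mitochondrial share was 1.64% in replicate 1 and 5.86% in replicate 2, a 3.56-fold gap within 1 group. The stem cell values of mitochondrial genes are therefore given with and without replicate 2.

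**Figure D1:**
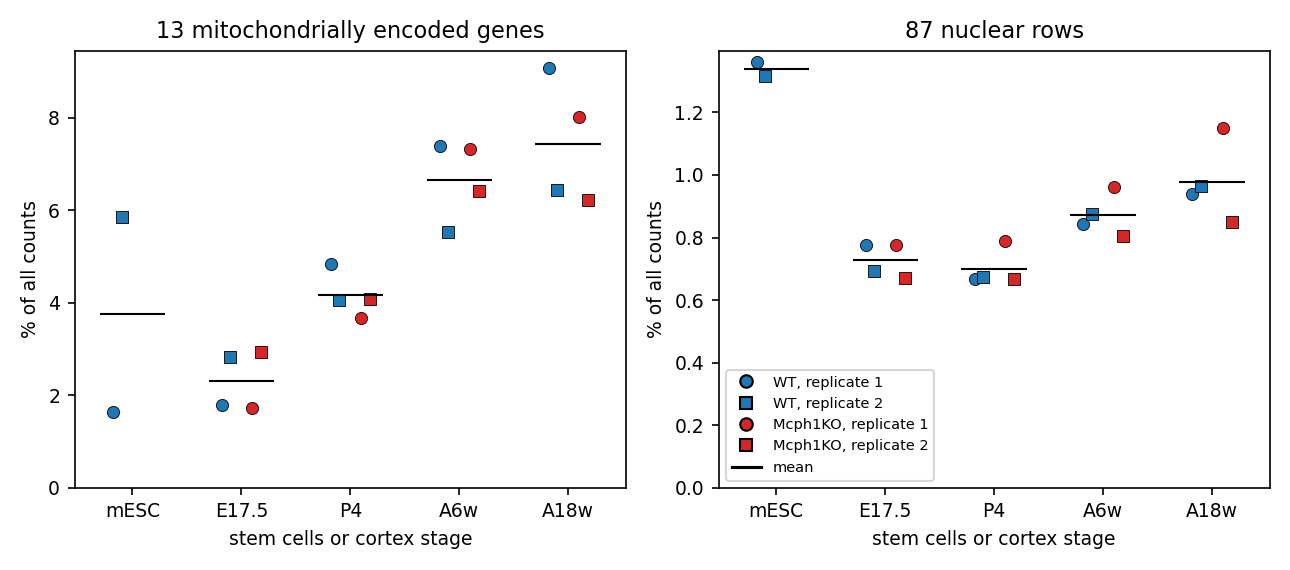
Share of all counts (%, y axis) from the 13 mitochondrially encoded genes (left) and the 87 nuclear rows (right) by stem cells or cortex stage (x axis), with 1 point per library, colour for genotype label, shape for replicate number and a line at the mean of the group or stage. The mitochondrial share climbs from about 1.72% to 2.93% at E17.5 to between 5.52% and 9.08% in adult cortex, and the nuclear share is highest in mESC.

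Between E17.5 and P4 the mitochondrial transcripts rose and nearly all nuclear ones did not. By edgeR's quasi-likelihood test with Benjamini-Hochberg adjustment over 19199 genes, 12 of 13 mitochondrial genes were higher at P4 and none was lower (median log2 fold change 0.94). Of the 83 nuclear members 3 were higher and 2 lower (median 0.00). Over all genes tested 36.8% were called, 18.9% higher and 17.9% lower, with a median of 0.03.

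Complex I subunits of the mitochondrial genome rose most in this step. mt-Nd6, the one protein gene encoded on the light strand, was at 129, 206, 145 and 248 CPM in the E17.5 libraries and at 438, 680, 413 and 660 at P4. The stages did not overlap, and the log2 fold change was 1.60 ± 0.24 (SE, n = 4 libraries against 4, adjusted p = 0.000333). mt-Nd5 rose by 1.53 ± 0.19 (adjusted p = 9.6e-05), mt-Nd2 by 1.36 ± 0.17 (0.000128), mt-Nd4 by 1.10 ± 0.21 (0.00148), mt-Nd1 by 1.04 ± 0.20 (0.00154), mt-Nd3 by 1.00 ± 0.35 (0.0386) and mt-Nd4l by 0.94 ± 0.27 (0.0153). All 7 of these proteins belong to the membrane arm of complex I.

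The mitochondrial subunits of the other complexes rose less in this step. mt-Co1, the catalytic subunit of complex IV and the member with most counts, was at 4386, 6872, 4148 and 6825 CPM at E17.5 and at 11176, 9846, 8854 and 9415 at P4. All P4 libraries lay above all E17.5 libraries (0.83 ± 0.21, adjusted p = 0.00825). mt-Co2 and mt-Co3, the other complex IV core subunits, rose by 0.58 ± 0.21 (0.0423) and 0.75 ± 0.19 (0.00878). mt-Cytb, the cytochrome b of complex III, rose by 0.76 ± 0.21 (0.0142) and mt-Atp6, the proton channel subunit of complex V, by 0.88 ± 0.22 (0.00707). The exception was mt-Atp8, a short complex V subunit whose gene overlaps mt-Atp6. It was at 297, 237, 338 and 242 CPM at E17.5 and at 286, 164, 209 and 312 at P4, so the stages overlapped (-0.19 ± 0.23, adjusted p = 0.561).

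How many genes were called here depended on the E17.5 libraries numbered 1, which had the lower mitochondrial shares. Several other features split the E17.5 libraries by number as well. Summed thalamus markers were at 110 and 118 CPM in those numbered 1 and 344 and 278 in those numbered 2. In the same order, hippocampus markers were at 211 and 204 against 287 and 250, and astrocyte markers at 352 and 377 against 431 and 430. Progenitor markers lay the other way, at 1177 and 1282 CPM against 862 and 905. Library totals did too, at 32041849 and 31643810 counts against 25240199 and 23654447. Their part in the calls was not tested. Of the 17 members called in either direction, 9 were called without E17.5 WT replicate 1, 10 without E17.5 Mcph1KO replicate 1 and 7 without both. Without both, mt-Nd1, mt-Nd2, mt-Nd4, mt-Nd5 and mt-Nd6 were still called, while mt-Nd3, mt-Nd4l, mt-Cytb and the 3 mt-Co genes and mt-Atp6 were not, with log2 fold changes from 0.37 to 0.70. The call on mt-Nd3 was also lost without P4 WT replicate 1 (0.52) or P4 Mcph1KO replicate 1 (0.79), that on mt-Nd4l without P4 WT replicate 1 (0.73), and that on mt-Cytb without P4 Mcph1KO replicate 2 (0.66). The call on mt-Co2 was lost without any 1 of the P4 libraries as well (0.51 to 0.63).

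**Figure D2:**
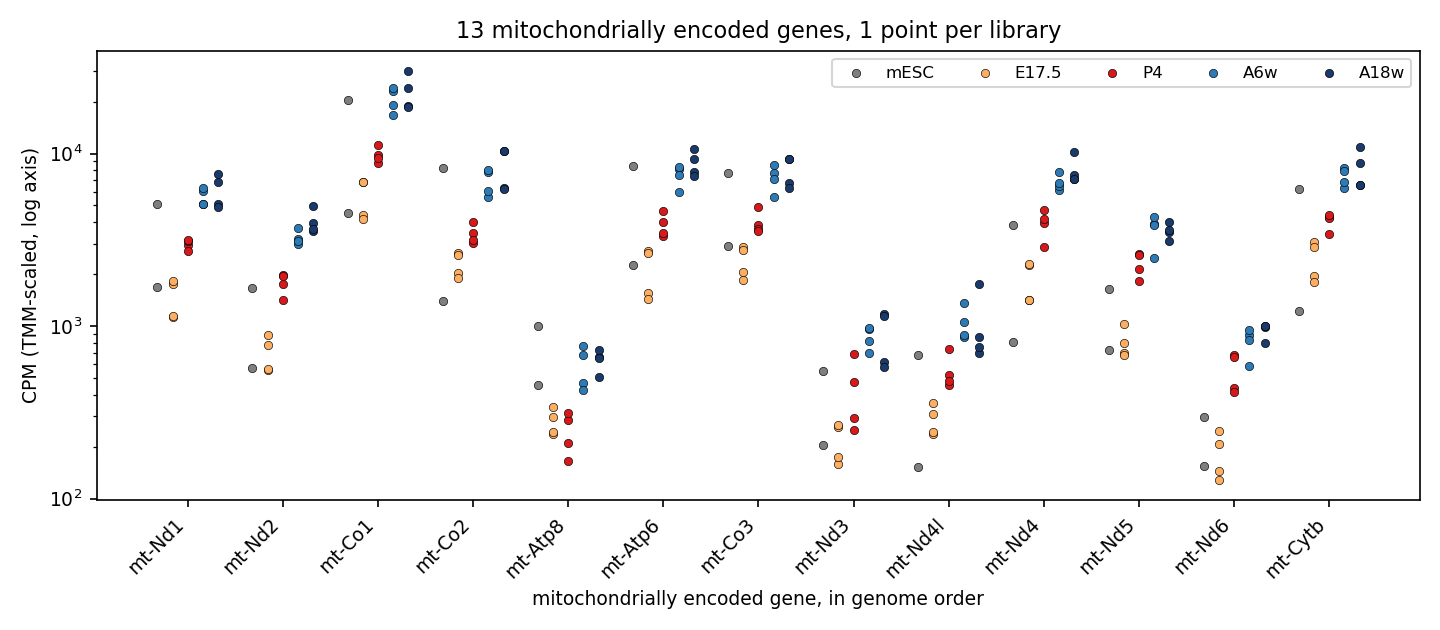
CPM on a log axis (y axis) of the 13 mitochondrially encoded genes in the order of the genome (x axis), with 1 point per library and colour for mESC or cortex stage. Most genes climb from E17.5 to P4 and on to A6w, mt-Atp8 overlaps between E17.5 and P4, and the 2 mESC libraries lie far apart for most genes.

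Between P4 and A6w both genomes rose. Of the mitochondrial genes 12 of 13 were higher (median 0.89), from mt-Nd5 at 0.63 ± 0.18 (adjusted p = 0.0107) to mt-Atp8 at 1.24 ± 0.24 (0.000638). mt-Co1 reached 22894, 16779, 23870 and 19131 CPM at A6w, above every P4 library (1.05 ± 0.21, adjusted p = 0.000937). mt-Nd6 was the one not called, at 890, 834, 584 and 948 CPM (0.54 ± 0.23, adjusted p = 0.0639), with 1 A6w library inside the P4 range. The mt-Nd3 call was lost when any 1 of 4 libraries was left out: P4 WT replicate 2, P4 Mcph1KO replicate 2, A6w WT replicate 1 or A6w Mcph1KO replicate 1 (adjusted p from 0.065 to 0.099). The mt-Nd4l call was lost without A6w WT replicate 1 (0.054) and the mt-Nd5 call without P4 Mcph1KO replicate 1 (0.052) or A6w Mcph1KO replicate 2 (0.063). With A6w and A18w together against E17.5, all 13 were higher with a median of 1.94, from 1.11 ± 0.21 for mt-Atp8 to 2.35 ± 0.17 for mt-Nd2.

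Of the 83 nuclear members tested, 57 were higher at A6w than at P4 and 1 was lower (median 0.61). Over all genes 55.1% were called, 27.3% higher and 27.8% lower, with a median of -0.06. With libraries scaled by their total count instead of TMM, the median of all genes was -0.28, that of the nuclear members 0.39 and that of the mitochondrial members 0.67, so both lie above all genes under either scaling. Cell type markers moved in the same step. Summed oligodendrocyte markers went from between 80.9 and 117 CPM at P4 to between 4572 and 8175 at A6w (6 of 6 higher), and cortical neuron markers from between 2636 and 4166 to between 9693 and 12030 (5 of 8 higher, 3 lower). Astrocyte markers went from between 679 and 1084 to between 1560 and 2061 (4 of 6 higher), and progenitor markers from between 499 and 653 to between 58.5 and 73.5 (8 of 8 lower). Their part in the rise of either genome was not tested. The nuclear rise was not even between complexes. Complex I had 28 of 35 subunits higher, including all 7 core subunits, complex III 7 of 9, complex IV 12 of 17, complex V 8 of 17 and complex II 1 of 4.

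Complex I subunits not called in this step were Ndufa7, Ndufa11, Ndufb2, Ndufb7, Ndufc2, Ndufs4 and Ndufv3, with log2 fold changes from -0.07 to 0.28.

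Complex II changed unevenly. Sdha, the flavoprotein that oxidises succinate, was at 113, 148, 135 and 141 CPM at P4 and 321, 366, 377 and 334 at A6w, far outside each other's range (1.35 ± 0.14, adjusted p = 3.19e-06). The iron-sulfur subunit Sdhb (0.10 ± 0.10), and the membrane anchors Sdhc (0.04 ± 0.11) and Sdhd (0.09 ± 0.16) were not called (adjusted p 0.42, 0.779 and 0.668). Under total count scaling Sdhb, Sdhc and Sdhd lay below 0, at -0.12, -0.18 and -0.13, and Sdha stayed higher. Per kilobase of exon, with all annotated exons of a gene merged, Sdha and Sdhb were at 32.5 and 41.7 CPM at P4. At A6w they were at 84.7 and 45.7, so their order turned by this measure. In CPM Sdha lay above Sdhb at both stages, with means of 134 and 93.4 at P4 and 350 and 102 at A6w.

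In complex III the core protein Uqcrc1 was at 124, 168, 171 and 145 CPM at P4 and 221, 237, 237 and 233 at A6w (0.58 ± 0.11, adjusted p = 0.000665). The small subunit Uqcr11 rose most, by 1.56 ± 0.26 (0.000233). The carrier Cycs, cytochrome c, was at 47.4, 64.9, 47.7 and 59.6 CPM at P4 and 82.9, 111, 95.9 and 85.1 at A6w (0.74 ± 0.18, adjusted p = 0.00409). For all 3 of these genes every A6w library lay above every P4 library.

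In complex V the rise was smaller. Atp5b, the catalytic beta subunit and the nuclear member with most counts, was at 598, 727, 727 and 736 CPM at P4 and 924, 1026, 986 and 906 at A6w. The ranges did not overlap (0.44 ± 0.14, adjusted p = 0.0153), but the call was lost without P4 WT replicate 1 (0.38) or A6w WT replicate 2 (0.40) and under total count scaling (0.21). The members not called were Atp5c1, Atp5e, Atp5f1, Atp5g2, Atp5g3, Atp5j2, Atp5l, Atp5mpl and Atp5o, between -0.16 and 0.49. Atp5s, known as coupling factor B, was the complex V member that rose most from E17.5 to adult, by 1.45 ± 0.14 (adjusted p = 8.33e-07).

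**Figure D3:**
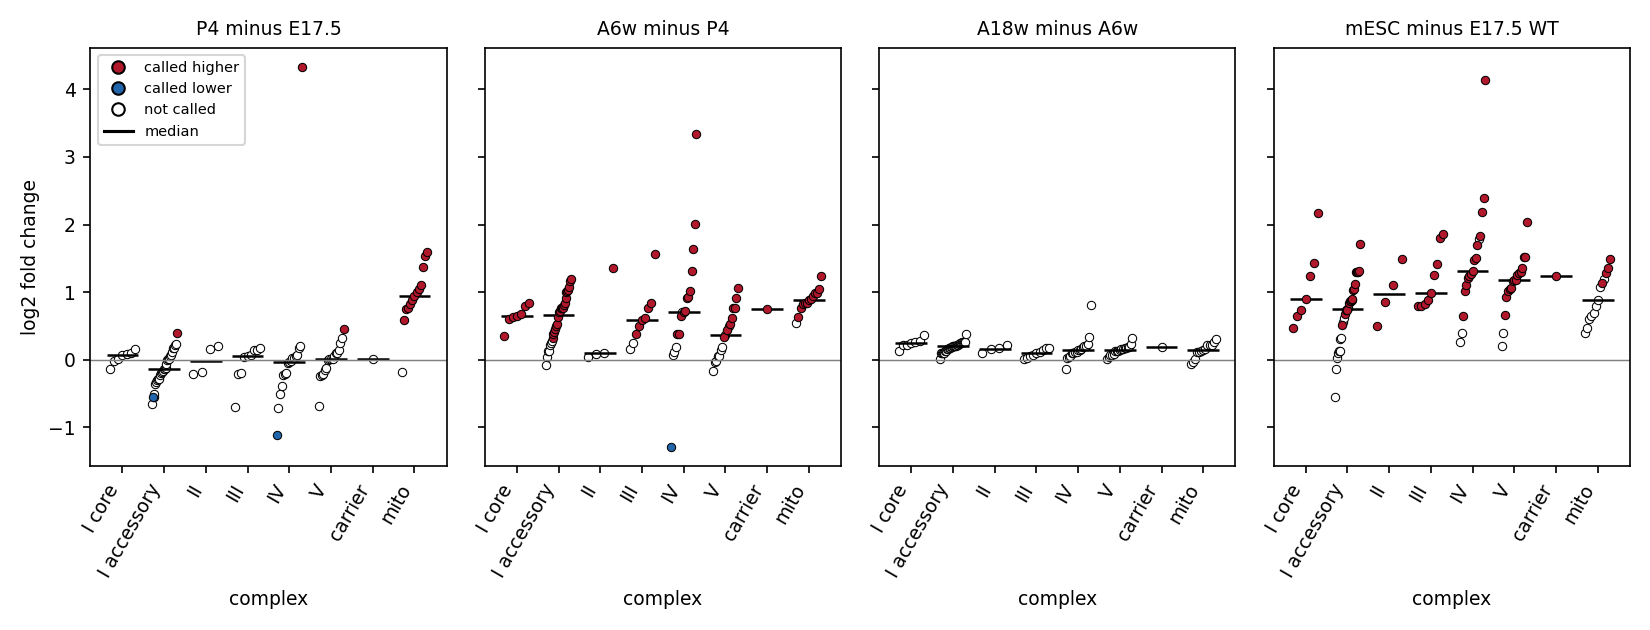
Fitted log2 fold change (y axis) of each tested member by complex (x axis) in 4 comparisons, with filled points for members called at an adjusted p under 0.05, open points for those not called and a line at the median. Mitochondrial genes rise in the first step, where nuclear medians lie between -0.14 and 0.08 by complex, and in the second step complexes I, III and IV rise beside them.

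Exon length went with these values by rank. It was taken per gene with all annotated exons merged, so it is not the length of a transcript. Across the 83 nuclear members Spearman's rho between this length and log2 fold change was 0.33 from E17.5 to P4 and -0.36 from P4 to A6w. In the same order, Pearson's r on log10 length was 0.05 and -0.32. These values describe genes measured in the same libraries. The 20 members with under 1000 bases had a median of -0.19 in the first step and 0.84 in the second. The 63 longer ones had 0.01 and 0.50. The part of RNA quality or size selection in this was not tested.

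Complex IV held the largest changes, among its tissue isoforms. Cox6a2, the heart and muscle form of subunit 6a, had 1, 0, 0 and 2 counts in the E17.5 libraries, 11, 24, 18 and 11 at P4 and 135, 176, 155 and 128 at A6w. The stages followed each other without overlap. From P4 to A6w its level was 10.3 times higher (95% counting interval 7.96 to 13.6, log2 fold change 3.34 ± 0.36, adjusted p = 4.67e-06), and against the 3 counts at E17.5 the ratio of P4 was 23.1 (7.55 to 115). The intervals cover counting error only. The common form Cox6a1 was at 153, 139, 195 and 146 CPM at P4 and 333, 309, 341 and 235 at A6w (0.92 ± 0.21, adjusted p = 0.00234). Per kilobase of exon Cox6a2 made up 0.02% of both forms at E17.5, 0.36% at P4 and 1.93% at A6w.

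Other genes moved beside Cox6a2. Parvalbumin interneurons are a cortical cell type with high energy use, and their marker Pvalb lay between 0 and 0.72 CPM at E17.5 and P4 and between 22.8 and 48.0 at A6w. Pvalb was a small part of the summed list of 7 markers of these cells. That list ran from 294 to 385 CPM at E17.5, from 336 to 454 at P4 and from 693 to 910 at A6w. How many of its markers were higher or lower is not given here, so Pvalb does not stand for the list. The summed list of 10 brown fat and skeletal muscle markers ran from 2.21 to 7.37 CPM at E17.5. At P4 it ran from 6.05 to 10.7 and at A6w from 14.4 to 17.6. Of its 7 tested genes 4 were higher and none lower at P4 than at E17.5, beside 18.9% and 17.9% of all genes. At A6w against P4, 2 were higher and 1 lower, beside 27.3% and 27.8% of all genes. Acta1, skeletal muscle actin, made up the largest part, at 7.69 to 10.4 CPM at A6w, while Ckm, Myl1, Tnnt3 and Ucp1 were at most 0.72 CPM in every cortex library. The part of these cells in the Cox6a2 value was not tested.

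Cox8a, the common form of subunit 8, stayed level between E17.5 and P4 (-0.23 ± 0.23, adjusted p = 0.438) and then rose 4.04-fold. It was at 60.8, 72.4, 107 and 72.7 CPM at P4 and at 362, 334, 371 and 213 at A6w (2.02 ± 0.23, adjusted p = 9.66e-06). Its muscle form Cox8b had 0 counts in mESC, E17.5 and P4, and 8 and 17 counts over the 4 libraries of A6w and A18w, while the testis form Cox8c had 22 counts in mESC, 1 at E17.5 and 0 later. A count of 0 over the P4 libraries allows up to 0.0258 CPM (3 counts over the stage). Cox4i1, the common form of subunit 4 and the nuclear complex IV member with most counts, rose by 0.93 ± 0.16 (adjusted p = 0.000341). It made up 98.6% to 99.3% per kilobase beside the lung form Cox4i2 in stem cells and at each cortex stage.

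Cox6b2, the testis form of subunit 6b, went the other way. It was at 1.68, 1.81, 1.27 and 1.64 CPM at P4 and 0.24, 0.76, 1.18 and 0.51 at A6w (-1.30 ± 0.43, adjusted p = 0.0209). Its mean share per kilobase beside the common form Cox6b1 was 1.2% at P4 and 0.36% at A6w. The ranges of its CPM did not overlap, but the call was lost without P4 Mcph1KO replicate 2, A6w WT replicate 1 or A6w Mcph1KO replicate 2 (adjusted p 0.0588, 0.0814 and 0.0781). Cox7a1, the muscle form of subunit 7a, stood at 16, 7, 10 and 9 counts at E17.5, 5, 5, 5 and 8 at P4 and 19, 12, 18 and 17 at A6w (A6w against P4 1.64 ± 0.45, adjusted p = 0.00744). Its stage means lay between 0.53% and 1.24% per kilobase of Cox7a1 and Cox7a2 together in cortex, with single libraries from 0.37% to 1.68%. Cox7b2, a testis form of subunit 7b, had 3 to 19 counts over the libraries of a stage, a mean of at most 0.49% per kilobase beside Cox7b.

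Ndufa4l2, a paralogue of Ndufa4 known as a target of hypoxia signalling, fell between E17.5 and P4. It was at 5.04, 5.72, 4.56 and 6.76 CPM at E17.5 and 2.93, 3.20, 1.75 and 2.39 at P4, without overlap (-1.12 ± 0.25, adjusted p = 0.00413). Its share beside Ndufa4, per kilobase, went from 8.14% at E17.5 to 3.55% at P4 and 2.45% at A6w. Pericytes are known to express it, and their 11 summed markers, with those of smooth muscle, ran from 276 to 370 CPM at E17.5 and from 195 to 346 at P4. Of these markers 4 were lower and none higher at P4, where 17.9% of all genes were lower and 18.9% higher, and their part in the Ndufa4l2 value was not tested. The other nuclear calls in this step were small: Ndufa2 at -0.56 ± 0.18 (0.0276), Atp5s at 0.45 ± 0.16 (0.0362) and Ndufa11 at 0.40 ± 0.11 (0.0164). Each of these 3 calls was lost without E17.5 WT replicate 1 or E17.5 Mcph1KO replicate 1 and without further single libraries, where the log2 fold changes lay between 0.31 and 0.51 for the 2 that rose and between -0.53 and -0.43 for Ndufa2.

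**Figure D4:**
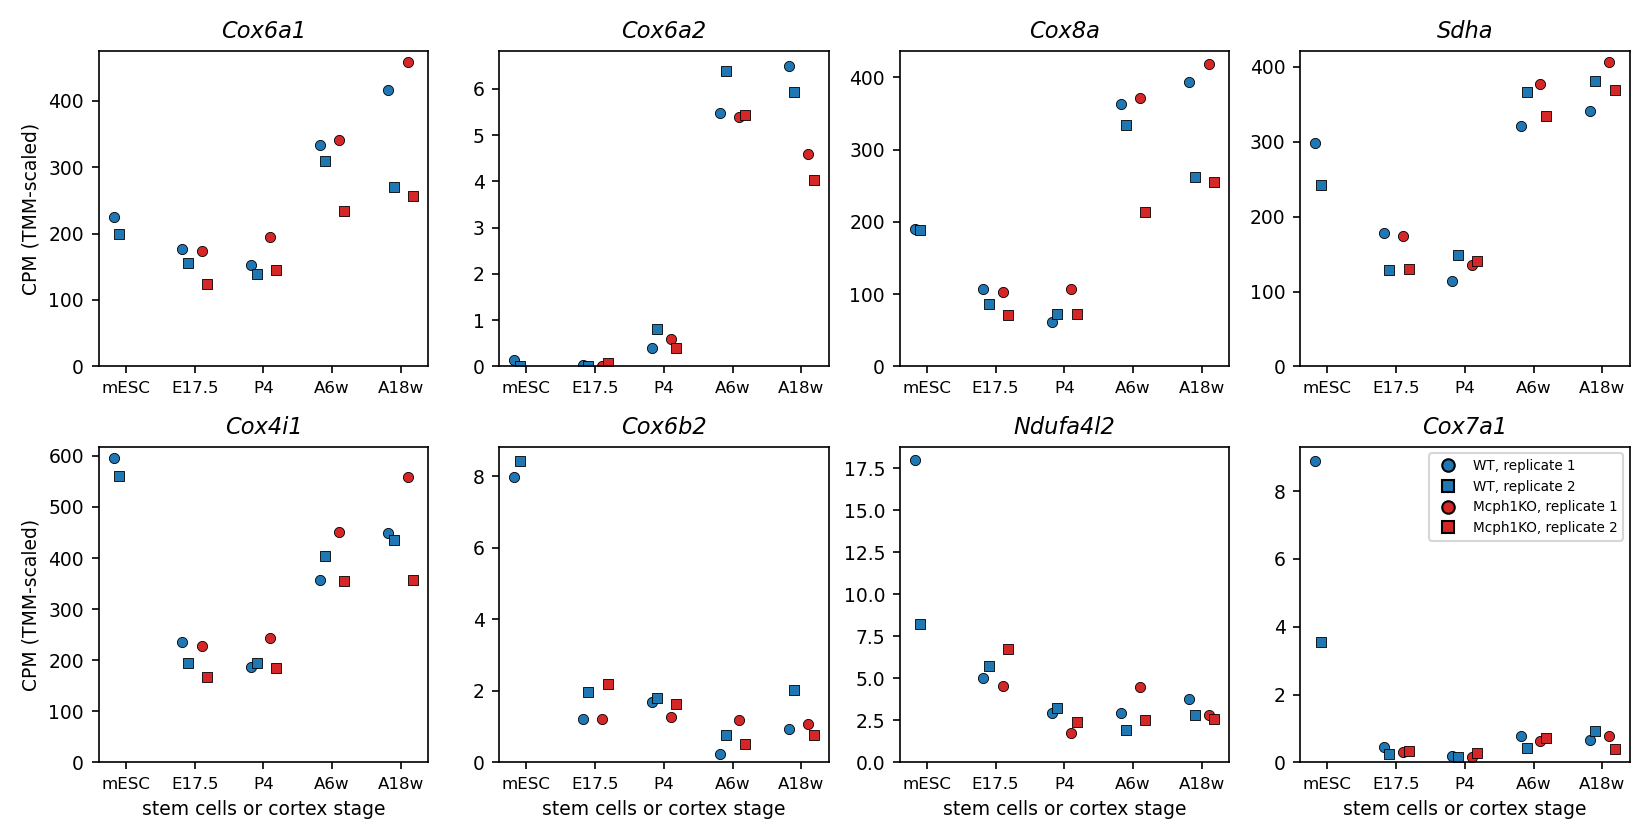
CPM (y axes, each from 0) of 8 nuclear genes in mESC and at each cortex stage (x axes), with 1 point per library, colour for genotype label and shape for replicate number. Cox6a2 goes from at most 2 counts at E17.5 to between 5.39 and 6.39 CPM at A6w, Cox8a and Sdha rise after P4, and Cox7a1 and Cox6b2 are highest in mESC.

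The ATP synthase c ring is encoded by Atp5g1, Atp5g2 and Atp5g3, which make the same mature protein. Atp5g1 rose from P4 to A6w (0.52 ± 0.13, adjusted p = 0.0047), and Atp5g3 (0.19 ± 0.12, adjusted p = 0.209) and Atp5g2 (-0.04 ± 0.29, adjusted p = 0.927) were not called. As deposited, their shares per kilobase at E17.5 were 15.5%, 15.1% and 69.4%. Atp5g2 has a near-identical annotated copy, Gm10175, that held 457% of its counts. With those counts added the shares were 9.47%, 48.2% and 42.4%, so the order of these 3 genes depends on how reads were shared out. It also depends on the lengths used, which merge all annotated exons and were 4912, 1675 and 2181 bases. In CPM with the copies added, the means at E17.5 were 72.9, 127 and 145.

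No member was called between A6w and A18w by edgeR, and none by DESeq2, where edgeR called 0.135% of all genes, 0.104% higher and 0.0313% lower. At an unadjusted p under 0.05 there were 4 members and 8.89% of all genes. The 4 were Ndufs7, Cox5a, Ndufb10 and Ndufv2, all between 0.26 and 0.38 higher. The fold changes of 82 of 83 nuclear members lay above 0 with a median of 0.17, against -0.01 over all genes, and 11 of 13 mitochondrial ones did (median 0.14). These members share libraries and are not independent. Sdha was at 342, 382, 407 and 369 CPM at A18w, overlapping A6w (0.09 ± 0.14, adjusted p = 0.91), and Cox6a2 at 139, 135, 107 and 90 counts (-0.14 ± 0.31, adjusted p = 0.956). The summed striatum markers, 216 to 367 CPM at A6w, were 2514, 538, 2020 and 809 at A18w.

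From E17.5 to both adult stages, 64 of 83 nuclear members rose and 2 fell, Cox6b2 and Ndufa4l2 (-0.93 ± 0.35 and -0.92 ± 0.21, adjusted p 0.0316 and 0.00149). Over all genes 69.0% were called, 33.5% higher and 35.5% lower. All 9 complex III subunits, 30 of 35 of complex I, 12 of 17 of complex IV, 10 of 17 of complex V and 2 of 4 of complex II were higher. Cox6b2 was at 0.94, 2.02, 1.07 and 0.76 CPM at A18w, where WT replicate 2 lay within the E17.5 range of 1.22 to 2.18. The Cox6b2 call was lost when E17.5 WT replicate 2 or E17.5 Mcph1KO replicate 2 was left out (-0.73 and -0.69) and without A6w WT replicate 1, A6w Mcph1KO replicate 2, A18w WT replicate 1 or A18w Mcph1KO replicate 2. A gap remained between the genomes at every stage: per kilobase of exon mt-Co1 was at 13378 CPM at A6w and Atp5b and Cox4i1 at 227 and 253.

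Stem cells had more of most nuclear members than E17.5 WT cortex. Fitted over 10 libraries, mESC and the WT cortex, 67 of 83 nuclear members were higher in mESC and none lower (median 1.04). Over all 19466 genes in that fit 68.0% were called, 32.7% higher and 35.3% lower, with a median of -0.06. With total count scaling the medians were 0.74 for nuclear members and -0.36 for all genes. All subunits of complexes II and III, 14 of 17 of complex IV, 15 of 17 of complex V and 24 of 35 of complex I were higher. Only Ndufs5 (-0.55) and Ndufc2 (-0.14) lay below 0, neither called. With the counts of its near copy added, Ndufs5 was at 48.5 and 29.3 CPM in mESC instead of 36.3 and 17.49, against 47.3 and 33.2 in E17.5 WT.

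The largest differences included the muscle and testis isoforms. Cox7a1 was at 8.87 and 3.55 CPM in mESC and 0.46 and 0.24 in E17.5 WT (4.14 ± 0.64, adjusted p = 0.00022, n = 2 libraries against 2). It made up a mean of 7.64% per kilobase beside Cox7a2 in mESC, with the 2 libraries at 3.23% and 12.1%. Over the E17.5 libraries of both labels the mean was 0.89%. Cox6b2 was at 7.99 and 8.42 CPM against 1.22 and 1.98 (2.40 ± 0.56, adjusted p = 0.00304). Cox7c, a subunit found in all tissues, was at 305 and 430 CPM against 89.5 and 75.7 (2.19 ± 0.31, adjusted p = 0.00012). None of the 3 overlapped between groups, but they were picked as the 3 largest called rises of 2 libraries against 2. The share of all genes without overlap is not given here. Cox4i2 (1.70 ± 0.47, adjusted p = 0.00847), Ndufa4l2 (1.32 ± 0.41, 0.0149), Cox8a (1.01 ± 0.23, 0.00272) and Sdha (0.85 ± 0.23, 0.00729) were also higher in mESC. Without E17.5 WT replicate 2 the calls on Cox4i2, Ndufa4l2 and Sdha were lost (1.59, 1.39 and 0.61), and the call on Ndufa4l2 was also lost without mESC replicate 1 (0.64) or E17.5 WT replicate 1 (1.22).

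The mitochondrial genes gave no stable comparison in stem cells. With both mESC libraries 4 of 13 were called higher: mt-Atp8 (1.49 ± 0.39, adjusted p = 0.00589), mt-Atp6 (1.36 ± 0.51, 0.0372), mt-Nd1 (1.28 ± 0.45, 0.0264) and mt-Co3 (1.14 ± 0.41, 0.0298). mt-Co1 was at 4537 CPM in mESC replicate 1 and 20544 in replicate 2, against 4386 and 6872 in E17.5 WT. Without replicate 2 none of these 4 was called (0.81, 0.10, 0.26 and 0.28). The other 9 were above 0 but not called with both libraries (adjusted p from 0.0803 to 0.543), and 7 of them turned below 0 without replicate 2. These were mt-Nd2 (0.80 with both, -0.18 without), mt-Nd4 (0.40, -1.14), mt-Nd4l (0.65, -0.81), mt-Nd6 (0.46, -0.086), mt-Cytb (0.60, -1.01), mt-Co1 (1.2, -0.28) and mt-Co2 (1.08, -0.71). mt-Nd4 and mt-Cytb were then called lower (adjusted p 0.0157 and 0.0404). The log2 fold change of mt-Nd3 went from 0.89 to 0.0091 and that of mt-Nd5 from 0.70 to 0.00025. In mESC replicate 1 the copy Gm28661 held 14376 counts, and with it mt-Co2 was at 2029 CPM there instead of 1395, against 2027 and 2661 in E17.5 WT. The mt-Nd1, mt-Co3 and mt-Atp6 calls were also lost without E17.5 WT replicate 1 (0.99, 0.91 and 0.99), and those of mt-Co3 and mt-Atp8 without E17.5 WT replicate 2 (1.37 and 1.31). Under total count scaling the mitochondrial median was 0.55, against 0.89 with TMM.

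The libraries labelled Mcph1KO were compared with WT at each stage. By edgeR no member was called at E17.5, P4, A6w or A18w, or averaged over the 4 stages, and DESeq2 called none either. Over all genes 0% were called at each single stage and 0.0521% in the average, 0.0417% higher and 0.0104% lower. At an unadjusted p under 0.05 there were 4 members at P4 (3.74% of all genes) and 0 in each of the others (1.58% of all genes at E17.5, 3.97% at A6w, 1.70% at A18w and 2.21% in the average). A test of whether the label difference changed with stage called 0 members, with 1 member and 2.27% of all genes under 0.05 unadjusted.

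The 4 members at P4 were Atp5s, Ndufa2, Ndufc1 and Uqcr11. Uqcr11 was at 12.8 and 15.6 CPM in WT and 31.2 and 21.1 in Mcph1KO (0.89 ± 0.37, unadjusted p = 0.033, adjusted p = 1). At A6w and A18w its difference was -0.34 ± 0.36 and 0.25 ± 0.36. Without a filter on low counts Uqcr11 was the 1 member called at P4 and in the test of change with stage. The shares of all genes called without that filter are not given here. Ndufa2, a complex I accessory subunit, was at 16.5 and 19.9 against 33.4 and 22.7 (0.64 ± 0.25). Ndufc1 was at 31.8 and 30.4 against 23.2 and 23.2 (-0.42 ± 0.17). Atp5s was at 9.12 and 9.47 CPM in WT and 4.84 and 7.06 in Mcph1KO (-0.64 ± 0.22, unadjusted p = 0.012). At the other stages its difference was 0.37 ± 0.22, 0.31 ± 0.21 and 0.02 ± 0.21 (E17.5, A6w and A18w). Its change with stage had an unadjusted p of 0.0229 and an adjusted p of 1.

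At P4 the 83 nuclear differences had a median of 0.12, with 64 above 0, and the 13 mitochondrial ones a median of -0.14, with 1 above 0. The nuclear medians were -0.06, 0.03 and 0.04 at E17.5, A6w and A18w and the mitochondrial ones 0.04, 0.04 and -0.18. P4 Mcph1KO replicate 1 had the highest nuclear share of its stage, 0.788%, and the other 3 libraries lay between 0.667% and 0.672%. Summed thalamus markers at P4 were 358 and 125 CPM in WT and 104 and 113 in Mcph1KO, and summed red blood cell markers 229 and 293 against 135 and 57.7. Their part in these medians was not tested.

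**Figure D5:**
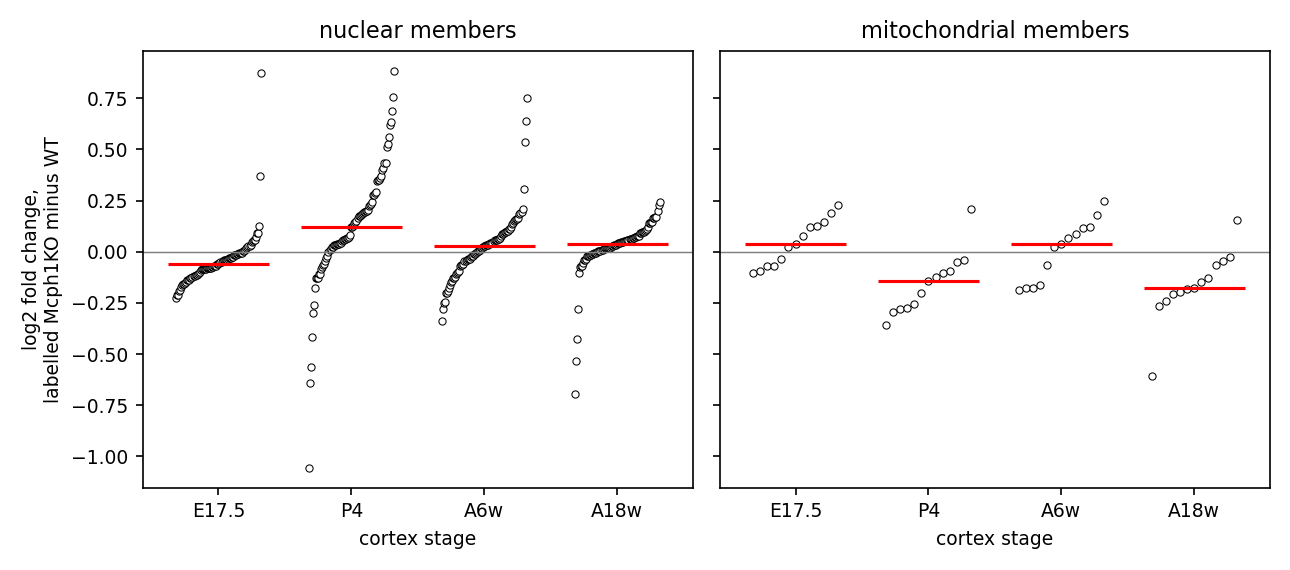
Fitted log2 fold change of libraries labelled Mcph1KO minus WT (y axis) for each tested nuclear (left) and mitochondrial (right) member by cortex stage (x axis), with a red line at the median. No member was called at any stage, and the nuclear and mitochondrial medians lie on opposite sides of 0 at P4 (0.12 and -0.14).

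The wider mitochondrial gene lists were followed beside the members. Of 46 assembly factors, which build the complexes without being part of them, 24 were higher and 4 lower at A6w than at P4, where 27.3% and 27.8% of all genes were. Examples were Cox17, a copper chaperone for complex IV (2.27 ± 0.24), Atpaf1, which assembles the ATP synthase head (1.59 ± 0.11) and the complex III factor Ttc19 (1.11 ± 0.09). Cox17 had been lower at P4 than at E17.5 (-0.88 ± 0.23). Of 18 tricarboxylic acid cycle genes 15 were higher and 1 lower in adult cortex than at E17.5 (33.5% and 35.5% of all genes), with Sucla2 at 1.52 ± 0.10 and Idh2 the one that fell (-1.64 ± 0.13). Ckmt1, the mitochondrial creatine kinase, rose in both steps (1.63 ± 0.18 and 1.92 ± 0.18).

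Most genes that copy and express the mitochondrial genome were lower in adult cortex or not called. Of 28 such genes 3 were higher and 15 lower in adult cortex than at E17.5 (median -0.34), beside 33.5% and 35.5% of all genes (median -0.04). Tfam, which packs mitochondrial DNA and starts its transcription, was at 45.4, 37.3, 48.6 and 37.8 CPM at E17.5 and at 32.4, 30.1, 36.3 and 33.3 at A6w, without overlap (adult stages against E17.5 -0.36 ± 0.10, adjusted p = 0.0064). The helicase Twnk (-1.07 ± 0.12) and the single-strand binding protein Ssbp1 (-1.25 ± 0.16) were also lower. In mESC 26 of the 28 were higher than in E17.5 WT cortex and none lower, where 32.7% and 35.3% of all genes were. Of 78 mitochondrial ribosomal proteins, 15 were higher and 13 lower in adult cortex, a smaller part in each direction than of all genes. In mESC 65 of the 78 were higher and none lower.

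The nuclear regulators were divided. Ppargc1a, the coactivator PGC-1 alpha, rose in both steps, by 0.99 ± 0.16 at P4 and 0.86 ± 0.15 at A6w, and was at 0 CPM to the first decimal in both mESC libraries. Nrf1, which encodes nuclear respiratory factor 1, fell in both (-0.83 ± 0.12 and -0.74 ± 0.12), as did Gabpa, the DNA-binding part of the GA-binding protein (-0.53 ± 0.12 and -0.61 ± 0.12). Esrra, an orphan nuclear receptor partner of Ppargc1a, fell to P4 and then rose (-0.79 ± 0.17 and 1.58 ± 0.17), and the deacetylase Sirt3 rose at A6w (1.83 ± 0.13). In all, 6 of 15 regulators were higher and 8 lower in adult cortex than at E17.5, with 33.5% and 35.5% of all genes called.

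Near-identical copies touched the levels of some members. For 24 members another annotated gene matched at 97% identity or more over at least 150 bases, and for 6 these copies held 5% or more of the member's counts: Atp5g2, Ndufb4, Cycs, Atp5l, mt-Co1 and Ndufs5. The counts of Gm29216 were 9.0% of those of mt-Co1 together with a second small copy. Gm10925, identical to mt-Atp6 over 678 bases, was at 16367 and 16410 counts in mESC, at 1437 and 8855 in P4 WT replicate 2 and P4 Mcph1KO replicate 2, at 104 and 247 in the A6w and A18w Mcph1KO replicates 2, and at 0 in the other 12 libraries. With all copies added to their member, 18 members were called between E17.5 and P4 and 70 between P4 and A6w. Between mESC and E17.5 WT 73 were called. The shares of all genes called with copies added are not given here.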

How the data were processed

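RNA-seq libraries were made from 18 samples with a NEBNext Ultra kit and run on a HiSeq 2500, per the labels' protocols. As deposited, the tables hold Salmon's estimated counts for each gene, from Salmon 1.4.0 after FastQC and Trimmomatic 0.39 on GRCm38.p6, per the submitters' processing notes. The annotation release is not given in the sources used here. The values are whole numbers as deposited, so no rounding was needed. CPM were computed from library totals multiplied by TMM factors over all 18 libraries, and shares of counts from the totals alone. Genes passed edgeR's filterByExpr with a minimum count of 10, libraries were scaled by TMM, and edgeR 4.0.16 (R 4.3.3) quasi-likelihood tests were run on the 16 cortex libraries in 1 model of group means. The stem cell comparison used a second model of the 10 wild-type libraries, with E17.5 WT as the other side. A gene was called at a Benjamini-Hochberg adjusted p under 0.05 over all genes tested. Library totals bound the precision: the 3 counts that a count of 0 allows over 4 libraries correspond to 0.0239 to 0.0335 CPM by stage.

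Eligible to be named with values, though not all are, were all mitochondrial genes, all alternative isoforms, the nuclear member of highest mean CPM in each complex, Cycs, and the 3 largest called rises and falls per comparison. One such gene is not reported here. Of other lists, up to 4 called genes of smallest adjusted p were eligible, and genes beyond this rule, among them the other complex II subunits, Tfam, Gabpa and the 4 genes of the P4 genotype comparison, were chosen after their values were seen. The members and lists were chosen with earlier results of these data known. Near-identical copies were found with BLAST+ among annotated transcripts. DESeq2 1.42.0, other scalings, other filters, the replicate number as a block and leaving out each library were tried as alternatives. On simulated data for P4 against E17.5 (19199 genes), 57% of 2-fold and 84% of 4-fold changes were recovered. For the genotype label at P4 (19199 genes) the shares were 28% and 70%. In these simulations few genes were changed and the rest kept the same mean in all groups. In the real data 36.8% of genes were called at P4 against E17.5, so recovery there may differ.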

Additional observations from a re-analysis of the deposited data

How the results depend on the processing

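Members called between P4 and A6w numbered 58 to 71 with 1 library left out, those between E17.5 and adult 67 to 83, and those between mESC and E17.5 WT 49 to 76. Between E17.5 and P4, 17 members became 9 to 22 with 1 library left out, 10 with all 18 libraries in the fit and 7 without both E17.5 libraries numbered 1. Without a filter on low counts 1 member was called for the genotype label at P4 and 1 for its change with stage. The nuclear share over counts outside the mitochondrial genome was 1.39% in mESC and 0.940% at A6w. Of 2538 refits of 103 gene results, 2371 kept direction and side of the threshold, 118 lost the call, 29 gained it and 20 turned direction. The cause was not tested.

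Without both E17.5 libraries numbered 1, mt-Atp8 turned to 0.011 at P4 against E17.5. With total count scaling the A6w against P4 values of Sdhb, Sdhc, Sdhd and Atp5g3 were -0.12, -0.18, -0.13 and -0.038. With 1 library left out, Sdhc ran from -0.026 to 0.13, Sdhd from -0.10 to 0.37 and Atp5g2 from -0.38 to 0.20 in that step. In mESC against E17.5 WT, mt-Nd2 ran from -0.18 to 1.36, mt-Nd4 from -1.14 to 1.11, mt-Nd4l from -0.81 to 1.35, mt-Nd6 from -0.086 to 0.85, mt-Cytb from -1.01 to 1.33, mt-Co1 from -0.28 to 1.89 and mt-Co2 from -0.71 to 1.84. Atp5s for the genotype label at A18w ran from -0.16 to 0.17. Where 1 library was left in a group, it was assumed to vary like the other groups.

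The replicate numbers are not said to mark a shared litter or batch. Deviations of same-numbered libraries correlated at 0.478, 0.209, 0.0829 and 0.295 by stage. With the replicate block 23 members were called at P4 against E17.5, 74 at A6w against P4 and 83 in adult against E17.5. In mESC the number was 71, and for the genotype label at each stage it was 0. The shares of all genes called in this and the other refits are not given here. The refit counts therefore do not set members apart from other genes.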
